A study of Pinus pinaster with 14 samples.

Results

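The 200 transcripts described here were the most strongly preferential to the hypocotyl cortex of maritime pine (Pinus pinaster) seedlings, out of 23493 transcripts in the deposited table. They were selected on their measured values in all 14 tissues. A transcript qualified with a normalised value of at least 100 in hypocotyl cortex and with a ratio of 4 or more between that value plus 5 and the value plus 5 of whichever other tissue was highest. Of 1943 transcripts at 100 or more in hypocotyl cortex, 627 qualified, which is 2.67% of the table, and the 200 with the largest ratios were kept. Since these values chose the members, their height in hypocotyl cortex is given as a description and was not tested. The members just inside the limit, isotig80769, isotig75900 and isotig88408, had ratios of 15.4, 15.3 and 15.3. The transcripts just outside it, isotig50147, isotig115539 and isotig53922, each had 15.2.

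Each tissue was 1 laser-microdissected library: hypocotyl cortex, hypocotyl vascular tissue and pith, root cortex and vascular tissue, developing root cortex and vascular tissue, root meristem, apical meristem, emerging needles, young needle mesophyll and vascular tissue, and cotyledon mesophyll and vascular tissue. All seedlings came from seed of the Oria provenance, grew in soil in a culture chamber without any treatment being compared, and were 1 month old. Which seedlings went into which library is not in the labels, and no tissue has a second library. The values are read counts scaled between libraries and are not divided by transcript length, so the order of members by value is an order of reads and not of molecules. In such bulk libraries, fewer cells of a type and less RNA per cell cannot be told apart.

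The cortex of a hypocotyl, the seedling stem below the cotyledons, is ground tissue: living parenchyma between the epidermis and the vascular cylinder, with the pith inside that cylinder. In conifers the cortex stores starch and other reserves, can be green near the surface, and often contains resin ducts lined by secretory cells. The table pairs no gene names with its identifiers, so no function can be given to a member, 0 lists of marker genes could be tested, and the labelled tissue could not be checked against cortex, vascular or epidermal markers. Without sequences it was also not checked that each member is a pine transcript. An isotig is an assembled transcript as named by the Newbler assembler. Among the members 197 of 200 identifiers (98.5%) were isotigs and 3 were unigenes. The share of isotigs was also high, at 91.6%, among the 427 transcripts that qualified but were not kept. It was 71.5% among all transcripts at 100 or more in hypocotyl cortex and 68.5% in the whole table. The 3 unigenes, named because they were so few, were unigene56710, unigene82844 and unigene42386, with values of 192, 740 and 169 in hypocotyl cortex.

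The hypocotyl cortex library had the fewest recovered reads, 519134, where the other 13 ranged from 531440 to 1536389. A single read was worth 3.76 in hypocotyl cortex, 2.96 in root cortex, 1.33 in apical meristem and 0.652 in root meristem, because the scaling of the deposited values divided each library by its depth and by a normalisation factor (0.513 in hypocotyl cortex and 0.716 in apical meristem). The library of the hypocotyl cortex and that of the apical meristem stood in an uneven relation. Of 1012 transcripts with at least 50 hypocotyl cortex reads, 1 had no read in the apical meristem (0.0988%), while 159 (15.7%) had none in the pith, 256 (25.3%) none in root cortex and 435 (43.0%) none in developing root cortex. In the other direction, 212 of 2489 transcripts with at least 50 apical meristem reads (8.52%) had no read in hypocotyl cortex. Each library took up part of a sequencing plate, and the labels do not say which shared one. The part that this relation has in the members' apical meristem values was not tested, and results that rest on the apical meristem are given below with and without it.

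Most members were known from few reads. Their values in hypocotyl cortex ran from 105 to 6032 with a median of 256, which is 28 to 1605 reads with a median of 68. There were 186 members under 200 reads and 60 members with 50 reads or fewer. Together they had 21924 reads, 4.22% of the hypocotyl cortex library (95% Wilson interval 4.17 to 4.28%, counting error only). Their ratios ran from 15.3 to 39.3 with a median of 19.8, and the highest value of a member in any other tissue had a median of 7.97.

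**Figure D1:**
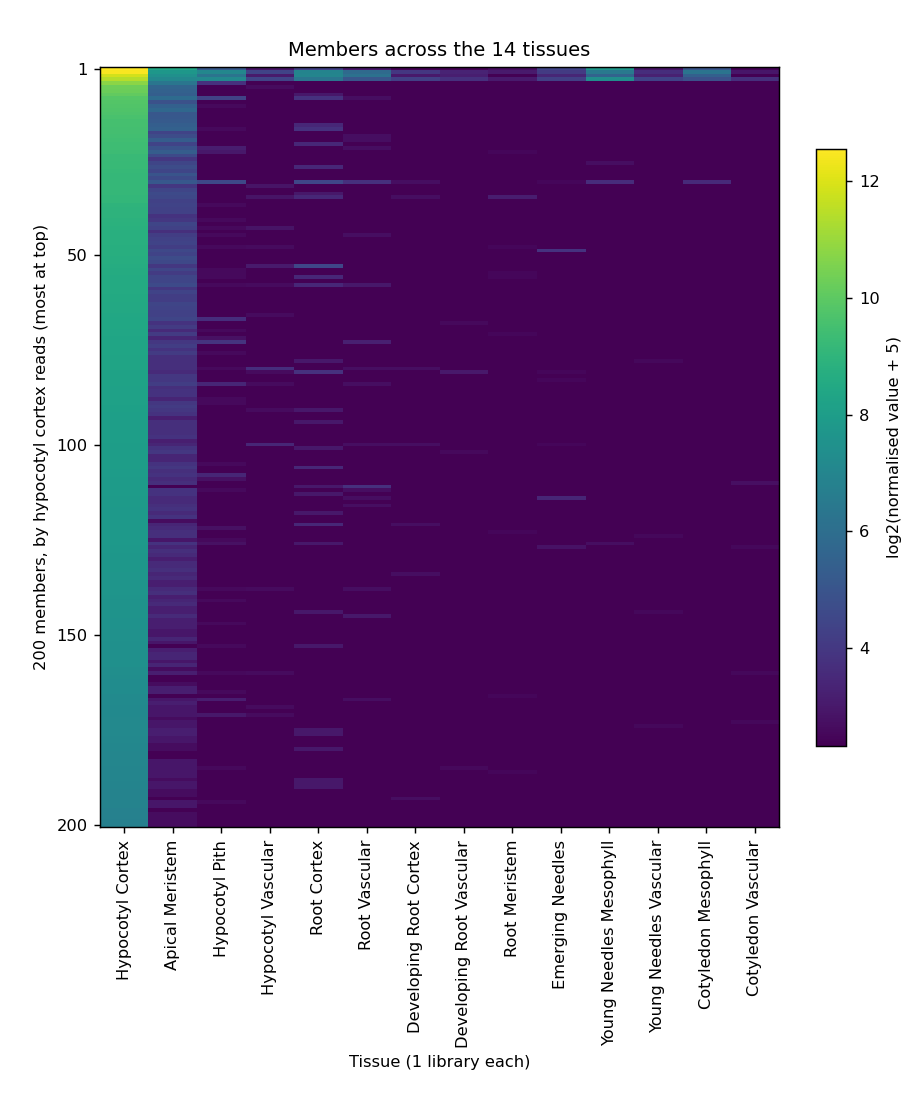
Normalised values of the 200 members as log2(value + 5), with tissues along the x axis (1 library each) and members down the y axis in order of their hypocotyl cortex reads. The hypocotyl cortex column is bright throughout, the apical meristem column is dimly lit and fades with it, and the other 12 columns are dark except for the 4 most abundant members at the top.

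Outside the hypocotyl cortex the members fell into a large class seen almost only in the apical meristem and a small class seen widely. No read outside the hypocotyl cortex was found for 5 members. The apical meristem was the only other tissue with reads for 99 members, and 2 members had reads in a single other tissue that was not the apical meristem. Reads in 2 other tissues were found for 59 members, of which 57 included the apical meristem, reads in 3 or 4 for 25, and reads in 5 or more for 10. A total of 104 members (52.0%) thus had no read in any of the 12 libraries other than hypocotyl cortex and apical meristem.

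The apical meristem was the second highest tissue for 180 members. Root cortex was second for 8, the pith for 2, and hypocotyl vascular tissue, root vascular tissue, developing root cortex, root meristem and young needle mesophyll for 1 each. The remaining 5 had no second tissue. When the rule was applied without the apical meristem library, 766 transcripts qualified, and 128 of the 200 members were again among the 200 largest ratios. Of those 200, 110 had no read in the 12 remaining tissues, and the pith was the commonest second tissue, for 35.

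Detection in each tissue separated the members from other transcripts that were also abundant in hypocotyl cortex. Members had reads in the apical meristem in 191 cases (95.5%), against 1742 of the 1743 other transcripts at 100 or more (99.9%). In the pith 46 members had reads (23.0%, against 86.7% of the others). In root cortex there were 35 (17.5%, against 76.5%) and in root vascular tissue 22 (11%, against 72.8%). Hypocotyl vascular tissue, which borders the cortex, had reads for 21 members (10.5%, against 75.7%). In the remaining 8 libraries the members with reads numbered between 5, in cotyledon mesophyll, and 12, in root meristem. The rule itself holds members low outside hypocotyl cortex, so the gap between members and others is a description. In order of members with reads, the apical meristem was followed by pith, root cortex, root vascular tissue and hypocotyl vascular tissue. The libraries differ in depth, with 1096230 reads in the pith and 578781 in root cortex.

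**Figure D2:**
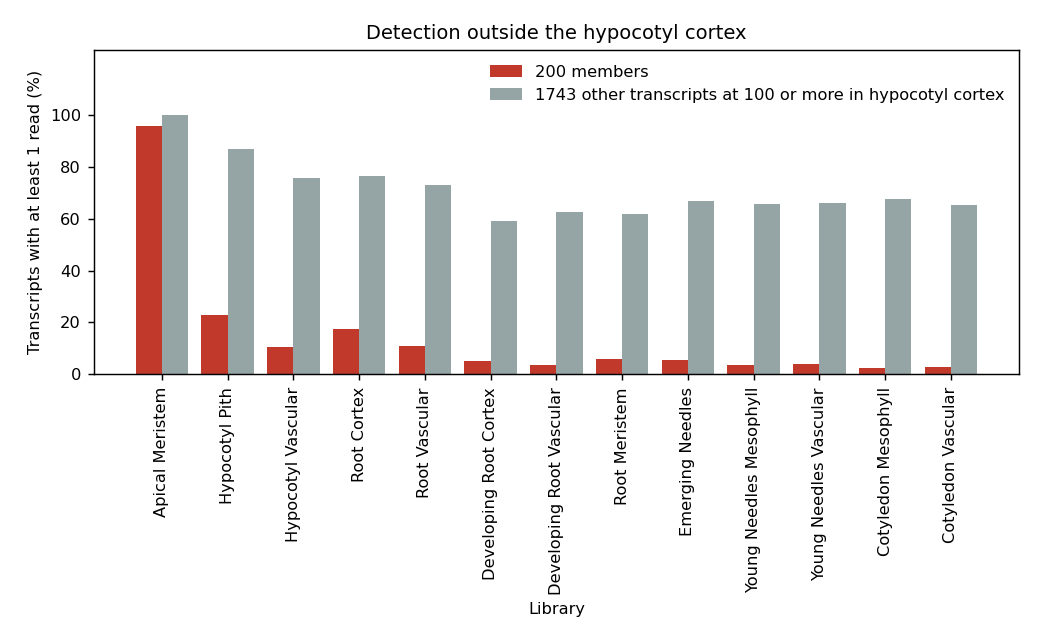
Percentage of transcripts with at least 1 read in each library other than hypocotyl cortex, for the 200 members and for the 1743 other transcripts at a value of 100 or more in hypocotyl cortex. The members' bar reaches 95.5% in the apical meristem and at most 23.0%, in the pith, elsewhere.

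By summed value the members stood at 82393 in hypocotyl cortex. They summed to 2949 in the apical meristem, 505 in young needle mesophyll, 494 in root cortex, 489 in the pith, 194 in root vascular tissue and 169 in cotyledon mesophyll. The other 7 tissues lay between 73.7, in hypocotyl vascular tissue, and 14.9, in cotyledon vascular tissue. The order of tissues after the apical meristem rests on the normalisation factors. By share of library reads it was pith (0.0464%), young needle mesophyll (0.0424%), root cortex (0.0289%), cotyledon mesophyll (0.0227%) and root vascular tissue (0.00892%). In the summed values a few members counted for most. The 4 members with the most reads held 21.9% of the members' reads in hypocotyl cortex. They held 28.3% in the apical meristem, 75.8% in the pith, 67.1% in root cortex and 98% in young needle mesophyll. The other 196 members together had 17114 reads in hypocotyl cortex, against 1590 in the apical meristem, 123 in the pith, 55 in root cortex, 32 in hypocotyl vascular tissue and 7 in young needle mesophyll.

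The 4 most abundant members were the ones with measurable levels in many tissues. isotig10039 had a normalised value of 6032 in hypocotyl cortex (1605 reads, 95% Poisson interval of the value 5740 to 6334, counting error only). Its value was 326 in apical meristem, 30.8 in pith and 2.23 in hypocotyl vascular tissue. In the leaves it was 210 in young needle mesophyll, 2.30 in young needle vascular tissue, 27.8 in cotyledon mesophyll, 0 in cotyledon vascular tissue and 15.6 in emerging needles. Below ground isotig10039 was low, at 14.8 in root cortex, 2.83 in root vascular tissue, 1.30 in root meristem and 0 in both developing root libraries. It had the highest second value of any member.

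isotig18826 had a value of 5611 in hypocotyl cortex (1493 reads, interval 5330 to 5903) and reads in all 13 other tissues. Its value was 206 in apical meristem, 128 in pith, 15.6 in hypocotyl vascular tissue, 82.2 in young needle mesophyll, 70.7 in cotyledon mesophyll and 12 in emerging needles. In root it was 118 in cortex and 52.4 in vascular tissue. The lowest values of isotig18826 were in developing root cortex (10.9) and vascular tissue (5.18), young needle vascular tissue (7.66), root meristem (3.26) and cotyledon vascular tissue (2.63).

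isotig136637 had a value of 3713 in hypocotyl cortex (988 reads, interval 3485 to 3952). Next came apical meristem (170), root cortex (121), pith (71.2), root vascular tissue (65.2) and the mesophyll of young needles (42.6) and cotyledons (39.6). It stood at 5.67 in emerging needles, 4.60 in young needle vascular tissue, 4.14 in developing root vascular tissue, 3.35 in hypocotyl vascular tissue and 3.12 in developing root cortex, with no read in cotyledon vascular tissue or root meristem. Unlike isotig10039, this member was higher in root cortex than in either mesophyll library, as isotig18826 was. For isotig18826 the order against both mesophyll libraries rests on the normalisation factors. It had 40 of 578781 reads in root cortex, 56 of 811037 in young needle mesophyll and 84 of 883851 in cotyledon mesophyll.

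isotig118668 had a value of 2721 in hypocotyl cortex (724 reads, interval 2526 to 2927) and was the member whose second highest tissue was young needle mesophyll, at 160. Its value was 141 in pith, 134 in apical meristem, 77.0 in root cortex, 28.3 in root vascular tissue and 24.4 in cotyledon mesophyll. From 16.7 in hypocotyl vascular tissue it ran down through young needle vascular tissue (16.1), emerging needles (14.2), developing root cortex (14.1), developing root vascular tissue (8.28) and cotyledon vascular tissue (7.89) to root meristem (3.26). For isotig118668 the order of young needle mesophyll and pith rests on the normalisation factors. It had 109 of 811037 reads in young needle mesophyll and 147 of 1096230 in pith. All 4 of these members were higher in mesophyll than in vascular tissue of both leaf kinds, and higher in root cortex than in root vascular tissue. In developing root, isotig18826 and isotig118668 were higher in cortex. There isotig136637 was lower in cortex (3.12) than in vascular tissue (4.14), and isotig10039 had no read in either.

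The fifth most abundant member, isotig56934, had another pattern. Its value was 1755 in hypocotyl cortex (467 reads, interval 1599 to 1922), 77.1 in apical meristem and 8.65 in pith, and it had no read in the other 11 tissues. Among the 196 members after the first 4, reads were found in at most 8 other tissues, by isotig75710. That member had 564 in hypocotyl cortex, 30.6 in apical meristem, 18.3 in pith, 17.8 in root cortex, 8.50 in root vascular tissue, 7.34 in young needle mesophyll, 6.73 in cotyledon mesophyll, 1.56 in developing root cortex and 0.709 in emerging needles.

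The next 3 members by reads were likewise near 0 outside the apical meristem. isotig48133 had 1255 in hypocotyl cortex (334 reads), 43.9 in apical meristem and 1.12, a single read, in hypocotyl vascular tissue. isotig63897 had 1236 in hypocotyl cortex (329 reads), 39.9 in apical meristem and no other read. isotig38816 had 1105 in hypocotyl cortex (294 reads), 37.2 in apical meristem and 1 read in root cortex. With the first 5 they make up the 8 members at a value of 1000 or more. The abundant members thus divide into 4 found in at least 10 other tissues and 4 found in 1 or 2.

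Members whose second tissue was not the apical meristem were mostly of low count. Root cortex was second for 8, but for 5 of these its value was that of a single read. isotig36560 had the highest of the 8 there, with 398 in hypocotyl cortex, 17.8 in root cortex (6 reads), 10.6 in apical meristem (8 reads) and 3.35 in hypocotyl vascular tissue. Hypocotyl vascular tissue was second for isotig57818, which had 256 in hypocotyl cortex, 5.58 in hypocotyl vascular tissue (5 reads) and 5.32 in apical meristem (4 reads). The pith was second for isotig56482, at 143 in hypocotyl cortex, 3.85 in pith (4 reads) and 2.66 in apical meristem (2 reads), and for isotig52032, at 139 in hypocotyl cortex, 2.88 in pith (3 reads) and 2.66 in apical meristem (2 reads). Developing root cortex and root meristem were second for isotig64286 and isotig56872 through 1 read each. At so few reads the order of the tissues after hypocotyl cortex lies within counting error.

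**Figure D3:**
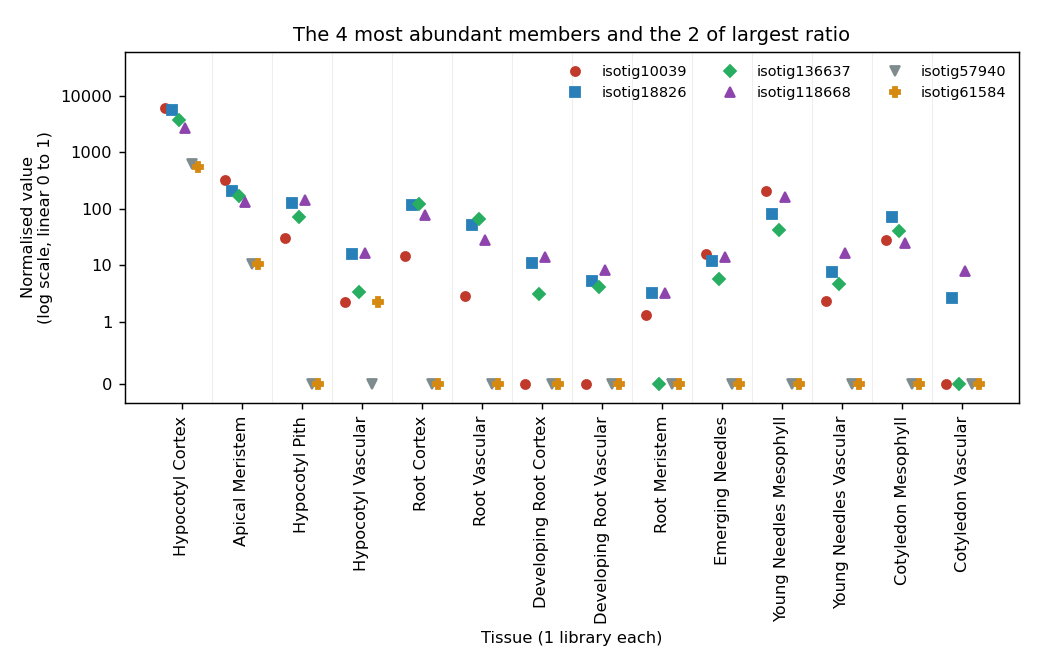
Normalised values in each tissue (log scale, linear between 0 and 1) for the 4 members with the most hypocotyl cortex reads and the 2 with the largest ratios, each point 1 library. The abundant members have values from 2721 to 6032 in hypocotyl cortex and reads in 10 to 13 other tissues, while isotig57940 and isotig61584 lie at 0 in nearly all of them.

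The 5 members with the largest ratios were far less abundant. isotig57940 stood at 609 in hypocotyl cortex (162 reads, interval 519 to 710) and 10.6 in apical meristem (8 reads), with no read in the other 12 tissues. isotig61584 stood at 556 in hypocotyl cortex (148 reads, interval 470 to 653), 10.6 in apical meristem and 2.23 in hypocotyl vascular tissue, with no other read. isotig83658 had 222 in hypocotyl cortex (59 reads, interval 169 to 286) and 1 read, a value of 1.33, in apical meristem. All 3 were thus found in 1 or 2 other tissues. isotig57623 had 714 in hypocotyl cortex (190 reads, interval 616 to 823) and 15.9 in apical meristem, and isotig63642 had 485 (129 reads, interval 405 to 576) and 9.30, with no read of either in the other 12 tissues. At the end of the list isotig88408, the last member, had 117 in hypocotyl cortex (31 reads, interval 79.2 to 165), 2.96 in root cortex, which was 1 read, and 2.66 in apical meristem. isotig50147, the first transcript outside, had 556 in hypocotyl cortex, 31.9 in apical meristem and 0.962 in pith.

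The members with no read outside hypocotyl cortex, named after their values were seen, were isotig60825, isotig69593, isotig117482, isotig73163 and isotig71630. They had 42, 41, 33, 33 and 29 reads in hypocotyl cortex, values of 158, 154, 124, 124 and 109. A count of 0 allows up to 3 reads at a 1-sided 95% limit. That is a value of up to 3.99 in apical meristem and 8.88 in root cortex, where the limit is highest among the other tissues. In all, 9 members had no apical meristem read, with 29 to 64 reads in hypocotyl cortex and a median of 38. The one with 64 reads was isotig39894, which had 6 reads in root vascular tissue (a value of 8.50) and 1 in root cortex. It was also the single transcript with at least 50 hypocotyl cortex reads and none in the apical meristem.

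Members with more hypocotyl cortex reads had more apical meristem reads. Reads in the apical meristem numbered 2219, which is 10.1% of the members' 21924 hypocotyl cortex reads, and the median member had 8.49% as many reads in the apical meristem as in hypocotyl cortex (quartiles 5.97 and 10.4%). In 4 classes of near equal size by hypocotyl cortex reads, the pooled percentage was 4.76% for members with 28 to 47 reads, 8.34% for 48 to 68, 9.90% for 69 to 110 and 11.4% for 112 to 1605. The rule bounds these percentages from above. At the ratio of the last member it allows 1 to 5 apical meristem reads in the first class and 17 to 293 in the last, and 32 members had exactly as many as it allows. The order of the 4 classes can therefore not be told apart from the bound.

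A set chosen without using the apical meristem values is free of that bound. There were 220 transcripts with at least 28 reads in hypocotyl cortex and none in the 12 libraries other than apical meristem, of which 104 were members. Of these 220, 5 had no apical meristem read and 3 had more reads there than in hypocotyl cortex. The median transcript had 11.1% as many apical meristem as hypocotyl cortex reads (quartiles 7.74 and 16.3%, range 0 to 120%). Across these 220 transcripts the Spearman correlation of reads in the 2 libraries was 0.573 and Pearson's 0.435, against 0.934 and 0.979 across the 200 members, where the rule narrows the spread. Without the 4 most abundant members, which are not among the 220, both were 0.93 across the other 196. These are descriptions across transcripts of the same 2 libraries, and the sets share 104 transcripts. Of 217 transcripts with at least 28 hypocotyl cortex reads and reads in exactly 1 other library, that library was the apical meristem for 215. Other libraries gave counts of the same kind. The one other library was the apical meristem for 30 of 30 such transcripts of root cortex, the pith for 69 of 69 of cotyledon mesophyll, and hypocotyl vascular tissue for 136 of 137 of young needle vascular tissue. For the apical meristem itself it was hypocotyl cortex for 32 of 58.

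**Figure D4:**
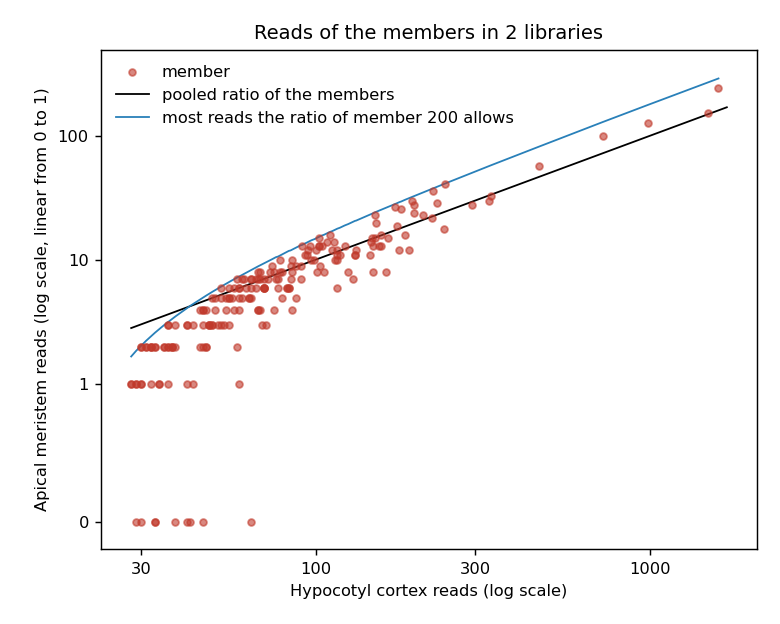
Reads of each of the 200 members in hypocotyl cortex (x axis, log scale) and apical meristem (y axis, log scale, linear between 0 and 1), each point 1 member. The black line is the pooled ratio of 10.1% and the blue line the most that the ratio of the last member allows, and points lie along the black line or below the blue one, with 9 at 0.

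Whether the members' remaining levels followed organ or tissue type was compared in libraries other than hypocotyl cortex. The rule had also used the values in these libraries and holds members low there. A lack of calls is therefore not read as a result about the members. As no tissue is replicated, the spread in these fits is that between tissues or organs. A transcript was tested when 2 or more of the libraries compared had it at 10 or above, and called at a limma Benjamini-Hochberg adjusted p under 0.05. Few members could be tested, and the others were too low outside hypocotyl cortex. The first comparison set hypocotyl vascular tissue and pith against the 11 tissues of other organs. Of 7 members tested 0 were called, beside 27 of all 16822 transcripts (0.161%). The 7 were the 4 abundant members with isotig75710, isotig73312 and isotig36560, and their log2 fold changes ran from -0.11 ± 1.29 SE in isotig10039 to 0.89 ± 1.21 SE in isotig118668 (limma adjusted p 0.988 to 0.999). Without adjustment, 0 of the 7 members and 690 of all 16822 transcripts had a limma p under 0.05. That share of all transcripts is itself below 0.05. edgeR and DESeq2 called 0 members.

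The second comparison set mesophyll and cortex against vascular tissue in young needles, cotyledons, root and developing root, with organ as a term. The 4 abundant members could be tested. The log2 fold changes of ground over vascular tissue were 2.23 ± 0.96 SE (isotig10039), 1.96 ± 0.89 (isotig18826), 1.54 ± 0.92 (isotig136637) and 1.49 ± 0.86 (isotig118668) on the log2(value + 5) scale. Reaching 10 in 2 libraries favoured members high in ground tissue. isotig10039 reached 10 in 3 ground libraries and in 0 vascular ones, and isotig18826 and isotig136637 in 1 vascular library each, so the shared direction is not read as a result. None of them passed (limma adjusted p 0.831 to 0.834), as 0 of 12602 transcripts did (0%). Before adjustment 542 of the 12602 transcripts had a limma p under 0.05, which is a share below 0.05. With a limma p of 0.0455, isotig10039 was among them. edgeR called 4 transcripts and DESeq2 79, with 0 members in either. In developing root, isotig10039 had no reads in cortex or vascular tissue. isotig136637 was the only one of the 4 with a lower value in cortex than in vascular tissue there.

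The third comparison set the 4 root and developing root libraries against the 4 of young needles and cotyledons, with tissue type as a term. Of the same 4 members 0 were called, beside 154 of 12602 transcripts (1.22%). The log2 fold changes were -1.51 ± 1.05 SE in isotig10039, -0.23 ± 1.13 in isotig118668, 0.21 ± 1.14 in isotig18826 and 0.67 ± 1.15 in isotig136637 (limma adjusted p 0.424 to 0.945). Before adjustment 2301 of the 12602 transcripts and 0 of the 4 members had a limma p under 0.05, and edgeR and DESeq2 called 0 members. The median change of all transcripts tested was 0.39 on this scale, so isotig136637 lay above the median and the other 3 below it. However, isotig136637, isotig18826 and isotig118668 lay within their SE of the median. isotig10039 lay further from it, but was not called, and the rule had used the values in these libraries. No member's side of the median is therefore read as a result.

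The same rule applied to other tissues gives lists to set beside this one. In hypocotyl cortex 627 transcripts qualified, against 831 in root vascular tissue and 583 in young needle mesophyll. Among the 200 largest ratios, at most 1 other tissue had reads for 106 members of the hypocotyl cortex list, against 81 in the root vascular list and 80 in the mesophyll list. No read elsewhere was found for 5 members of the hypocotyl cortex list, against 41 in the root vascular list and 42 in the mesophyll list. The largest ratio was 39.3 in hypocotyl cortex, 970 in root vascular tissue and 142 in young needle mesophyll. A single other tissue, the apical meristem, was second for 90% of the hypocotyl cortex members. The commonest second tissue was root cortex in the root vascular list (11%) and hypocotyl cortex in the mesophyll list (15.5%). A prevailing second tissue was found in other lists too. In root cortex, where 129 transcripts qualified and all were kept, the apical meristem was second for 72 (55.8%), and in developing root cortex the root meristem was second for 41 of 90 (45.6%). In cotyledon mesophyll the pith was second for all 10 (100%). A read was worth 3.76 in hypocotyl cortex, against 1.42 in root vascular tissue and 1.47 in young needle mesophyll. These shares were not tested, since each list comes from 1 library.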

How the data were processed

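The members, the lists and the comparisons were chosen with earlier results of these data known. RNA of 14 microdissected tissues, 1 library each, was amplified with a conifer protocol (CRA+) and read by pyrosequencing on the GS-FLX+ platform, per the labels' protocols. FastQC, BWA and edgeR are listed in the submitters' processing notes, without versions. The mapping reference and any filter on low transcripts are not given in the sources used here. For each of 23493 transcripts the authors deposited a normalised signal, in which reads are scaled to library size times a normalisation factor, as far as the values show. All values were whole multiples, within 0.001, of the smallest value of their column (100% in each), so whole reads were recovered (519134 to 1536389 a library).

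Named members were, by a rule of the design, the 5 of largest ratio, the 5 most abundant, the one with the highest second value, those at the limit, and for each tissue second highest in 10 or more members the highest there. Members named for being few, or in the tests, were chosen after their values were seen. The log2(value + 5) scale was fitted with limma (version 3.58.1, R 4.3.3), the prior variance following the mean, and p-values were adjusted over all transcripts tested. edgeR 4.0.16 and DESeq2 1.42.0 ran on recovered reads as alternatives. Wilson and Poisson intervals are at 95% and cover counting error only.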

Additional observations from a re-analysis of the deposited data

Results flagged for a closer look

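The number of members with reads and the share of library reads were each screened for libraries far from the others. The screens, 8 in all, ran in overlapping sets of 4 libraries (ground, vascular, root and leaf). Chance would mark about 1 in 20 independent screens, and 2 values stood apart, both of members with reads. By share of library reads no library stood apart. Root cortex had reads for 35 members, against 10 in developing root cortex, 7 in young needle mesophyll and 5 in cotyledon mesophyll. Root vascular tissue had reads for 22 members, against 8 in young needle vascular tissue, 7 in developing root vascular tissue and 6 in cotyledon vascular tissue. The 4 most abundant members account for 4 of each of these 2 counts. The same 2 libraries also led among the 1743 other transcripts abundant in hypocotyl cortex. Of these, 76.5% had reads in root cortex, against 59% in developing root cortex, 65.5% in young needle mesophyll and 67.5% in cotyledon mesophyll. In root vascular tissue the share was 72.8%, against 65.9% in young needle, 65.3% in cotyledon and 62.5% in developing root vascular tissue. How far this bears on the members' counts was not tested. Root vascular tissue was the deepest library, at 1536389 reads, and root cortex was among the shallowest, at 578781.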

How the results depend on the processing

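The list depended on the scaling, on its minimum and on the apical meristem. With plain CPM, without the normalisation factors, 257 transcripts qualified in place of 627, and 139 members did, since 61 then lay under the minimum of 100. With a minimum of 200 the rule took 292, with 135 members, and with a minimum of 50 it took 1191. Leaving out 1 other library at a time, 128 (without apical meristem) to 200 members were again among the 200 kept, and 119 without apical meristem and root cortex, an alternative added after the data were seen. With a pseudocount of 1 and 25, 171 and 150 members were kept. The apical meristem was second for 171 to 184 of the 200 kept in every alternative that included it. In the 3 comparisons 0 members were called under each alternative, but few could be tested, and with no filter most had no read in the libraries of the second and the third comparison. Counts over all transcripts moved more. For the other hypocotyl tissues, 27 became 1 (pseudocount 1, and edgeR), 52 (pseudocount 25), 50 (no filter), 17 (DESeq2) and 9 (without apical meristem and root cortex), and 0 to 35 with 1 library left out (0 without pith, 2 without hypocotyl vascular tissue, 12 without emerging needles, 13 and 16 without developing root cortex and vascular tissue, 14 without root meristem, 17 without apical meristem). All 27 of the main fit were higher in the other hypocotyl tissues, whereas DESeq2 called 3 higher and 14 lower. For ground against vascular tissue, 0 became 4 with edgeR and 79 with DESeq2. For root against leaves, 154 became 61 (pseudocount 25), 0 (no filter) and 1215 (DESeq2), and 76 to 145 with 1 library left out (76 without root vascular tissue, 102 without root cortex, 96 and 87 without young needle and cotyledon mesophyll); 69 higher and 85 lower became 39 and 113 with plain CPM and 136 and 69 with edgeR. Depth limits members with few reads most.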

Other observations

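Among the 182 ordered pairs of libraries, 6 had under 1% of the transcripts with at least 50 reads in the first lacking a read in the second. Besides hypocotyl cortex in apical meristem, these were root cortex in apical meristem (3 of 974), young needle vascular tissue in hypocotyl vascular tissue (0 of 4375), cotyledon mesophyll in pith (0 of 3747), developing root cortex in root meristem (17 of 1744) and root meristem in developing root vascular tissue (30 of 3792).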
